A study of Homo sapiens with 6 samples.

Results

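The interferon-stimulated genes described here are a list of 36 genes that cells switch on when type I interferon reaches them, and they were read in 3 human glioblastoma cell lines that had received a precursor of the microRNA miR-338-5p or a negative control. The list was drawn up by gene symbol, with earlier results of these data known, and each member was matched to the probe sets annotated to that 1 symbol, and where a gene had several probe sets the brightest over the 6 arrays would have been taken, which no member needed. Of the 36 members, 35 were measured among 18417 genes with such a probe set, and STAT2 was not analysed here. The arrays were Affymetrix Human Gene 1.0 ST oligonucleotide arrays, and every value below is a deposited RMA expression value on the log2 scale, so that a difference of 1 is a doubling.

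A172, T98G and U87MG are established lines grown from glioblastoma, a malignant brain tumour of glial character. Each line was transfected with either the negative control or the miR-338-5p precursor (called the mimic here), and the cells were collected 24 hours later, per the labels. That gave 6 arrays in all, 1 for each line and transfection, hence 3 control and 3 mimic arrays. Every group passed through transfection and no untransfected array was analysed here. The stated purpose of the series was to find targets of the microRNA; the labels do not name the sequence of the negative control or say how many cultures lie behind an array.

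Type I interferons are secreted after a cell senses foreign nucleic acid. They bind a receptor whose kinases JAK1 and TYK2 lead to assembly of the complex ISGF3. This complex holds IRF9 and binds interferon-stimulated response elements in the promoters of many of the genes listed here. The products bind viral RNA, block virus entry or release, attach the ubiquitin-like protein ISG15 to other proteins, or feed back on the pathway, and tumour lines differ widely in how much of this programme they express without added interferon.

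The microRNA is shown because it is the agent compared. Capitals mark its seed, bases 2 to 8, in the RefSeq mature sequence (GRCh38.p14, chr17:81125923-81125944, minus strand).
hsa-miR-338-5p: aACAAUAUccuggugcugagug

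The promoter sequences below show the response element named above, for 7 members with a match that were at least 1 log2 unit higher on the A172 mimic array than on the A172 control array, and then for 3 members that differed there by 0.12 or less. They come from the RefSeq windows of 250 bases before to 50 bases after each annotated start (GRCh38.p14). Capitals mark matches to GAAANNGAAA on either strand (TTTCNNTTTC when read on the other strand), a core of the interferon-stimulated response element.
IFI44L (chr1:78620269-78620399, plus strand): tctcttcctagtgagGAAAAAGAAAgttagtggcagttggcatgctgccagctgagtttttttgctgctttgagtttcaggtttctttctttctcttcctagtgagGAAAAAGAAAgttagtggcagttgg
IFIT1 (chr10:89392492-89392544, plus strand): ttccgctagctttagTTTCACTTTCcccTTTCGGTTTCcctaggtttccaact
IFIT3 (chr10:89327826-89327899, plus strand): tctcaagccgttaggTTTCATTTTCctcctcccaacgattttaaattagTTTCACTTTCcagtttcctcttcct
IFITM1 (chr11:313985-314058, plus strand): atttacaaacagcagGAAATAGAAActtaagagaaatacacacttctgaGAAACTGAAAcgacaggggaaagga
RSAD2 (chr2:6877617-6877656, plus strand): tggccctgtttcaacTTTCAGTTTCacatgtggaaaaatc
IFI6 (chr1:27672261-27672363, minus strand): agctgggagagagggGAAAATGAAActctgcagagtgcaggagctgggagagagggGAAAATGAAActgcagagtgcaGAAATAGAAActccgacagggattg
IFI44 (chr1:78649756-78649795, plus strand): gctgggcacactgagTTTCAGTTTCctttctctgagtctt
IFITM3 (chr11:320871-320927, minus strand): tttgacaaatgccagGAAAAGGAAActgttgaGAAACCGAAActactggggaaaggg
ISG20 (chr15:88638932-88638971, plus strand): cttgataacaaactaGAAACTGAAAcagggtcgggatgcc
LGALS3BP (chr17:78979957-78979996, minus strand): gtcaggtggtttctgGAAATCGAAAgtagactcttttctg

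The motif stood in 3.57% of all 35116 promoter windows and in at least 1 window of 587 of the 14239 measured genes with one (4.12%), against 21 of the 29 measured members with a window (72.4%). Within the list, it was found for 13 of 17 members at least 0.5 higher in A172 with the mimic (76.5%) and for 8 of the 12 others (66.7%), so members with a small difference carried it too. PARP9 and DTX3L, which are transcribed in opposite directions from a shared start region, hold the same single match. XAF1, which was 1.26 higher in A172, held no match in either of its windows. A match, or none, describes the letters in this window only. Windows of USP18, IRF7, MX2, IFIT2, TRIM22 and IFITM2 were not analysed here.

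Array medians lay between 5.06 and 5.14, the control and mimic arrays of a line had a Pearson correlation of 0.992 to 0.993 across the table's probe sets, and those of unlike lines one of 0.954 to 0.962. Of the 10 glioma markers, VIM (11.88 to 12.65) and CD44 (11.48 to 11.90) were bright on all arrays. S100B and FABP7 lay below the filter level of 4.28 on all 6. GFAP, the classical astroglial filament, lay between 5.07 and 5.39. The others were EGFR (8.1 to 9.0), CHI3L1 (4.8 to 9.9), NES (5.2 to 7.3), PDGFRA (3.6 to 5.1) and SOX2 (4.0 to 4.7). EGFR differed by -0.58 in A172, -0.43 in T98G and -0.36 in U87MG (mimic minus control, limma adjusted p 0.064). The summed level of the 6 measured leukocyte markers was 28.05 and 27.47 in A172 (control, then mimic), 26.25 and 26.03 in T98G, and 27.26 and 27.43 in U87MG, with 2 of the 6 below the filter level on all arrays. CD68, a lysosomal protein of macrophages that other cells also express, read 8.29 to 10.40 over the arrays, ITGAM 4.35 to 4.92 and PTPRC 2.67 to 4.35. In A172 the sum joined differences of both signs, among them 0.35 for PTPRC, -0.47 for ITGAM and -0.37 for CD3E. The part of these markers in the results below was not tested. Both measured plasmacytoid dendritic cell markers lay below the filter level on all arrays. Of the other marker lists, the sum went from 15.10 to 15.36 (endothelial, 4 genes), 14.09 to 14.66 (epithelial, 3 genes) and 20.62 to 20.12 (neuronal, 4 genes) between the A172 control and mimic arrays.

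The 3 lines differed in what the interferon-stimulated genes did with the mimic. In A172, 32 of the 35 measured members were above 0 (mimic minus control), beside 49.9% of all measured genes. Of these, 19 members were higher by at least 0.5, against 2.06% of all measured genes, and 10 by at least 1, against 0.168%; no member was lower by 0.5, against 1.82%. Counted over tested genes alone, 18 of 34 members were higher by at least 0.5 (1.96%) and 9 by at least 1 (0.174%). The median member difference was 0.58 in A172, where the median of all measured genes was 0.00.

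Neither of the other lines showed this. In T98G, 13 of the 35 members were above 0 (50.2% of all measured genes), no member was higher by 0.5 (1.95%) or lower by 0.5 (2.31%), and the median was -0.06. In U87MG, 10 were above 0 (52.2% of all genes), none was higher by 0.5 (1.61%), and IFIT1 and MX2 were lower by at least 0.5 (2.30%); the median was -0.10. With 1 array for each line and transfection these within-line differences have no replicate, so no test of a line's own difference, or of the difference between lines, can be made. In RNA from a whole culture, more cells that express a gene and more RNA per cell cannot be told apart.

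**Figure D1:**
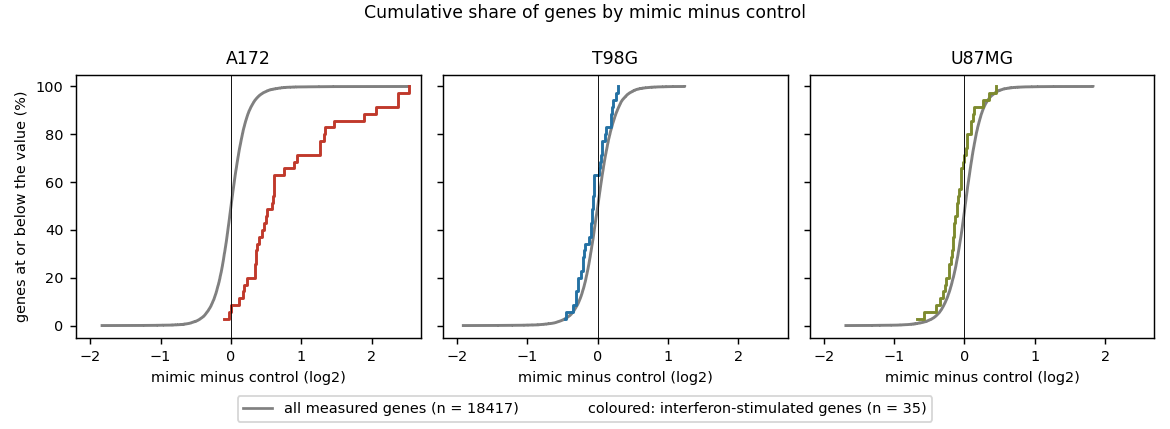
Cumulative share of genes (%, vertical axis) by mimic minus control (log2, horizontal axis), with 1 panel for each line. The grey curve is all 18417 measured genes and the coloured steps are the 35 interferon-stimulated genes, whose median lies at 0.58 in A172, -0.06 in T98G and -0.10 in U87MG.

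Ranked by mimic minus control in A172, 6 of the 10 largest positive differences among 18417 measured genes were members, 10 of the 20 largest, and 13 of the 100 largest. No member was among the 100 largest differences of either sign in T98G or U87MG. The list holds 35 of the 18417 measured genes, so a count of 0 is the usual outcome there. Of all measured genes, 31 were at least 1 higher on the A172 mimic array, and 10 of these were on the list. The change in A172 was above that in both other lines for 32 of 35 members, beside 32.7% of all measured genes, and 17 members were above 0 in A172 and below 0 in both T98G and U87MG, beside 10.3%. The members above 0 in every line were IFIT2, BST2, CMPK2 and IFI44, 4 of 35 beside 16.9%.

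Across the 3 lines, no member passed the test of mimic against control. The limma model with the line as a block called 0 of the 34 members tested at an adjusted p under 0.05, where it called 153 of 13813 genes (1.11%), 44 higher (0.319%) and 109 lower (0.789%). At an unadjusted p under 0.05, the limma fit held 1 of the 34 members, IFI44 (p 0.0461), against 11.8% of genes. IFI44 was higher by 0.54 ± 0.65 (SD over 3 lines; limma adjusted p 0.405), with differences of 1.27, 0.29 and 0.04 in A172, T98G and U87MG. IFI44L had the largest mean difference, 0.86 ± 1.46 (SD, 3 lines), with a limma interval of -0.27 to 1.99 and an adjusted p of 0.548. A median over the members of 0.12 for the mean of the lines stood beside 0.00 for all measured genes, and it was -0.06 without A172.

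With A172 left out, 21 of the 34 tested members had a mean difference below 0, beside 47.7% of genes. In that fit 3 members had an unadjusted limma p under 0.05, beside 9.66% of genes: IFIT1 at -0.47, MX2 at -0.48 and USP18 at -0.39. Their limma adjusted p values were 0.193, 0.25 and 0.25, so none passed.

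**Figure D2:**
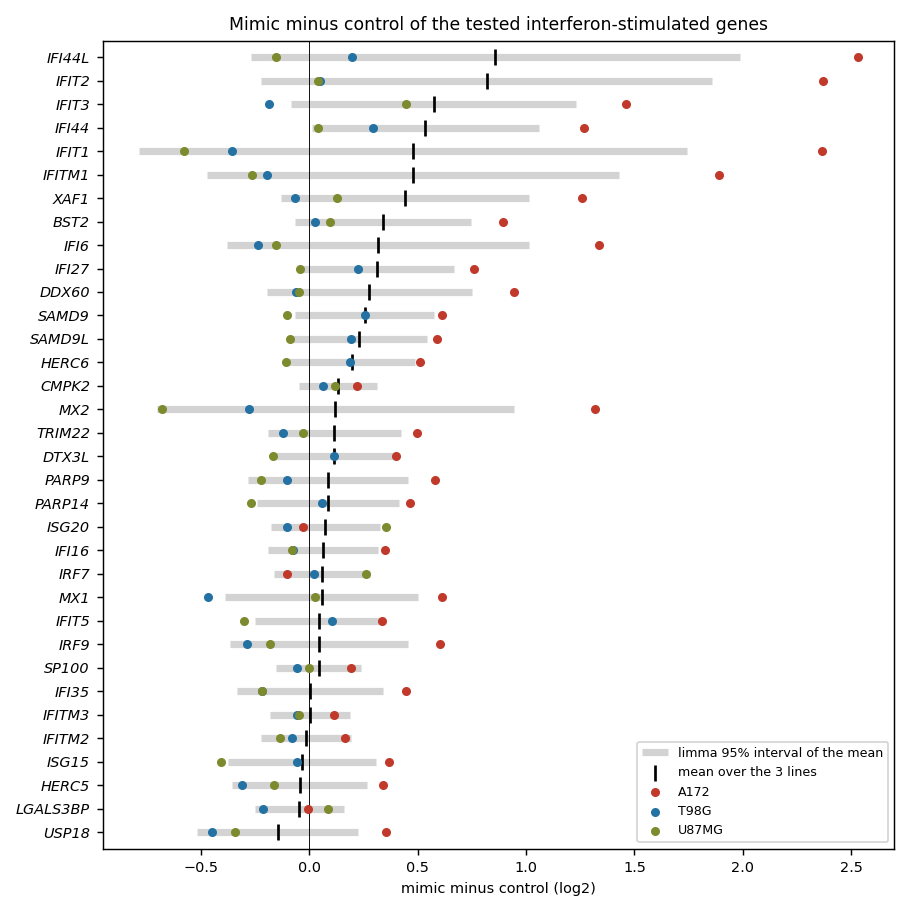
Mimic minus control (log2, horizontal axis) for the 34 tested interferon-stimulated genes (rows, by mean over the lines), with 1 point for each line, a tick at the mean of the 3 lines and a grey bar for limma's 95% interval of that mean. For IFI44L the A172 point is at 2.53 and those of T98G and U87MG at 0.20 and -0.15.

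The lines also differed in their starting levels, against which the A172 differences are read. The limma F test over the 3 lines called 25 of the 34 tested members, against 67.5% of all genes, so the list differed between lines about as often as genes in general. A172 stood above U87MG for 19 members (27.3% of genes) and below it for 4 (26.9%), and T98G stood above U87MG for 12 (23.6%) and below for 6 (23.5%). Between A172 and T98G, 11 members differed (50.5%), of which BST2 and XAF1 were lower in A172 and the rest higher. These contrasts average the control and mimic array of each line and so include the A172 difference. Among the control arrays alone, U87MG was the lowest of the 3 for 18 of 35 members (35.3% of genes), T98G the highest for 18 (30.9%), and A172 the lowest for 10 (31.5%) and the highest for 10 (38.0%).

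**Figure D3:**
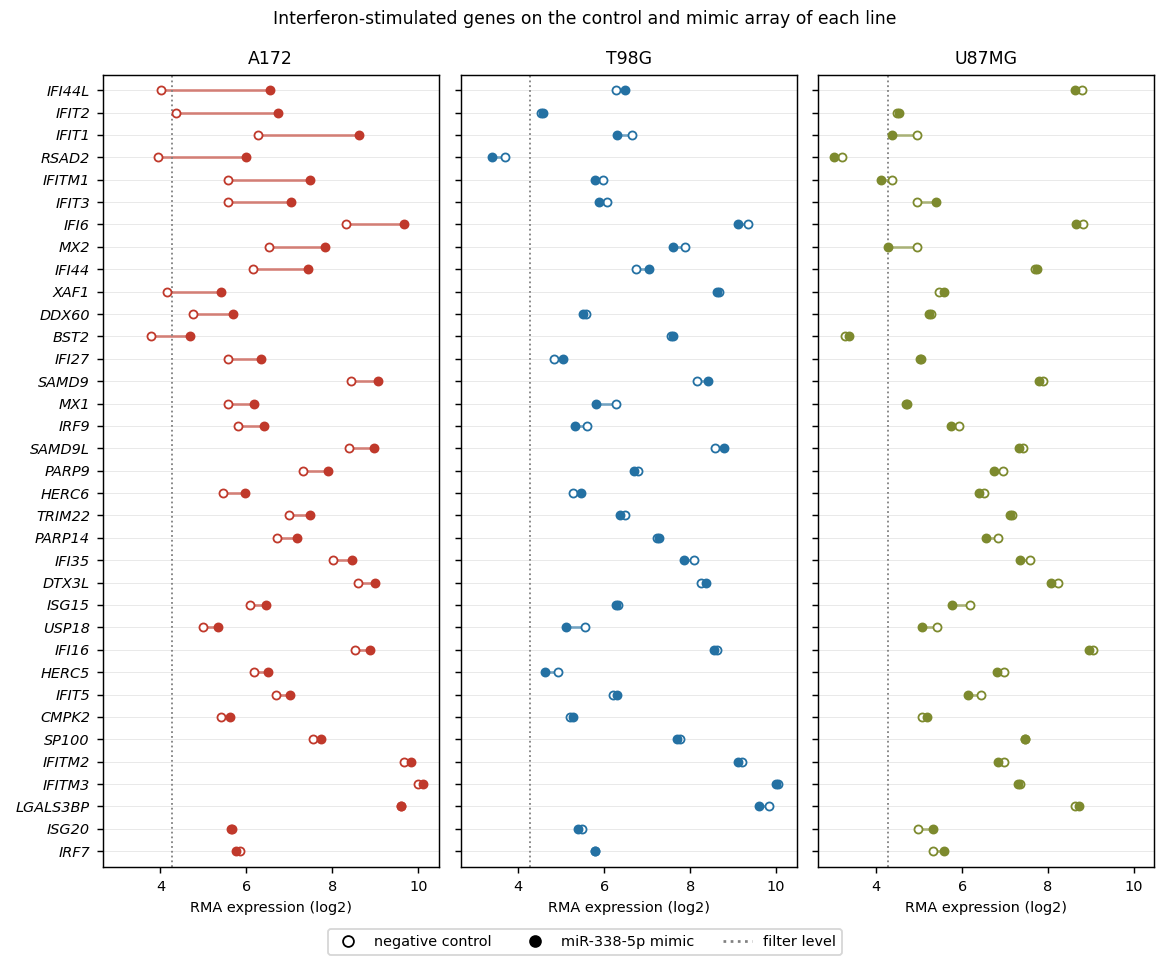
RMA expression (log2, horizontal axis) of the 35 measured interferon-stimulated genes (rows, by their A172 difference) on the control array (open circle) and mimic array (filled circle) of each line, joined by a line. The dotted line is the filter level of 4.28; for IFI44L the A172 pair runs from 4.01 to 6.54, while the U87MG pair lies at 8.78 and 8.63.

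The IFIT genes, whose proteins bind viral RNA and block its translation, included 3 of the 10 members at least 1 higher in A172. IFIT1 read 6.26 on the A172 control array and 8.63 on the A172 mimic array, 6.65 and 6.29 in T98G, and 4.96 and 4.38 in U87MG. IFIT2 read 4.37 on the A172 control array and 6.74 on the A172 mimic array, 4.53 and 4.58 in T98G, and 4.49 and 4.53 in U87MG. For both genes the A172 mimic array was the highest of the 6, and the 5 other IFIT2 values lay within 4.37 and 4.58. The A172 differences, 2.37 for each gene and 5.16-fold, were ranks 3 and 2 of all measured genes.

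IFIT1 was lower on the mimic array in the other lines, with differences of -0.36 in T98G and -0.58 in U87MG, while IFIT2 differed there by 0.05 and 0.04. The mean over lines was 0.48 ± 1.64 for IFIT1 and 0.82 ± 1.34 for IFIT2 (SD, 3 lines; limma adjusted p 0.783 and 0.526). IFIT3, which stabilises IFIT1 on RNA, read 5.58 and 7.04 in A172 (control, then mimic), 6.07 and 5.89 in T98G, and 4.95 and 5.40 in U87MG. The mimic array was thus higher in A172 and U87MG and lower in T98G, with a mean of 0.57 ± 0.83 (SD, 3 lines, limma adjusted p 0.48). Between unlike lines the mimic and control values overlapped. IFIT5, the remaining family member, differed by 0.33 in A172, 0.11 in T98G and -0.30 in U87MG. Its control levels were 6.69, 6.20 and 6.43 in the order A172, T98G and U87MG, which is kept for triplets of values from here on. Sequence shared between probe sets of related genes was not checked here.

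The MX genes encode dynamin-like GTPases that trap viral nucleocapsids, MX1 in the cytoplasm and MX2 at the nuclear envelope. MX2 read 6.52 on the A172 control array and 7.84 on the A172 mimic array, 7.88 and 7.60 in T98G, and 4.96 and 4.28 in U87MG. The A172 mimic value thus came close to the T98G pair without passing the T98G control, and both other lines were lower with the mimic. Over the lines the mean was 0.12 ± 1.05 (SD, 3 lines; limma adjusted p 0.926). U87MG held less MX2 than the other lines, with A172 minus U87MG at 2.56 (SE 0.42, limma adjusted p 0.00235) and T98G minus U87MG at 3.12 (SE 0.42, limma adjusted p 0.00111). MX1 started at 5.56, 6.26 and 4.70 on the control arrays and differed by 0.61, -0.47 and 0.03.

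Among the membrane factors, the IFITM proteins hinder fusion of virus and host membranes and BST2 (tetherin) holds budding virus at the cell surface. IFITM1 read 5.58 on the A172 control array and 7.47 on the A172 mimic array, 5.98 and 5.79 in T98G, and 4.37 and 4.11 in U87MG. Its A172 mimic value was the highest of the 6 and its difference, 1.89 or 3.71-fold, was rank 5 of all measured genes, with a mean over lines of 0.48 ± 1.22 (SD, 3 lines; limma adjusted p 0.703). IFITM2 differed by 0.16, -0.08 and -0.13 from control levels of 9.67, 9.20 and 6.98. IFITM3 differed by 0.12, -0.06 and -0.05 from 10.00, 10.05 and 7.36. Their mimic and control values thus lay close together within each line.

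U87MG expressed less of all 3 IFITM genes. For IFITM3, A172 minus U87MG was 2.73 (SE 0.09, limma adjusted p 2.53e-06), and T98G minus U87MG was 2.69 (SE 0.09, limma adjusted p 2.86e-06). IFITM2 gave 2.84 (SE 0.11, limma adjusted p 3.41e-06) for A172 minus U87MG. BST2 read 3.79 and 4.68 in A172 (control, then mimic), 7.56 and 7.59 in T98G, and 3.28 and 3.37 in U87MG. T98G stood far above the other lines on both of its arrays, with A172 minus T98G at -3.35 (SE 0.21, limma adjusted p 3.37e-05); the A172 difference of 0.89 started from a control value below the filter level.

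RSAD2 (viperin) makes a chain-terminating nucleotide that stops viral polymerases, and CMPK2, its neighbour on chromosome 2, is a nucleotide kinase. RSAD2 read 3.94 on the A172 control array and 5.99 on the A172 mimic array, 3.68 and 3.38 in T98G, and 3.20 and 3.01 in U87MG. Only the A172 mimic array was above the filter level of 4.28, and the gene's mean over the arrays kept it out of the test; its A172 difference of 2.06 was rank 4, from a control value where array background limits a fold. When no genes were filtered, its mean was 0.52 ± 1.33 (SD, 3 lines) with a limma adjusted p of 0.755. CMPK2 started from control levels of 5.40, 5.21 and 5.07 and differed by 0.22, 0.06 and 0.12, above 0 in each line. The exonuclease ISG20 started at 5.67, 5.48 and 4.97 and differed by -0.03, -0.10 and 0.35, above 0 in U87MG alone. The helicase-like DDX60 started at 4.75, 5.57 and 5.28 and differed by 0.94, -0.06 and -0.05, so that the A172 control was the lowest of the 3 controls and the A172 mimic array above both other lines.

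The genes named for their induction by interferon held 3 more of the large differences. IFI44L, a feedback regulator of the response, read 4.01 on the A172 control array and 6.54 on the A172 mimic array, 6.28 and 6.48 in T98G, and 8.78 and 8.63 in U87MG. The A172 mimic value lay beside the T98G pair, and U87MG was above both other lines on each of its arrays. The A172 difference of 2.53, 5.79-fold, was rank 1 of all measured genes, from a control value below the filter level of 4.28, where array background limits a fold. Averaged over both arrays of each line, A172 minus U87MG was -3.43 (SE 0.58, limma adjusted p 0.00262).

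IFI44, its relative and neighbour on chromosome 1, read 6.16 and 7.42 in A172 (control, then mimic), 6.75 and 7.04 in T98G, and 7.69 and 7.73 in U87MG. All 3 lines were above 0 for IFI44. Between unlike lines the mimic and control values overlapped, with the U87MG control above the mimic values of A172 and T98G. That overlap reflects the levels of the lines and does not bear on the paired differences. IFI6, a mitochondrial and endoplasmic reticulum protein that limits cell death, read 8.32 and 9.66 in A172 (control, then mimic), 9.35 and 9.12 in T98G, and 8.81 and 8.66 in U87MG. Its A172 control was the lowest and its A172 mimic the highest of the 6 arrays, and its mean over lines was 0.32 ± 0.89 (SD, 3 lines; limma adjusted p 0.735). IFI27, a small mitochondrial protein, started at 5.58, 4.83 and 5.05 and differed by 0.76, 0.22 and -0.04. IFI35 started at 8.02, 8.08 and 7.57 and differed by 0.45, -0.22 and -0.22, above 0 in A172 alone.

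XAF1, which antagonises the apoptosis inhibitor XIAP, was also at least 1 higher in A172. It read 4.16 on the A172 control array and 5.42 on the A172 mimic array, 8.68 and 8.62 in T98G, and 5.46 and 5.58 in U87MG. The A172 control lay below the filter level. Even with the mimic, A172 remained below both other lines, and T98G lay above them on both arrays, with A172 minus T98G at -3.86 (SE 0.29, limma adjusted p 7.96e-05). Mean mimic minus control was 0.44 ± 0.71 (SD, 3 lines; limma adjusted p 0.539). SAMD9 and SAMD9L are neighbouring antiviral and growth-restraining genes. SAMD9 started at 8.44, 8.16 and 7.89 and differed by 0.61, 0.26 and -0.10. SAMD9L started at 8.39, 8.59 and 7.42 and differed by 0.59, 0.19 and -0.09, so both were above 0 in A172 and T98G and below 0 in U87MG.

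The ubiquitin-like modifier ISG15 was listed with HERC5, HERC6 and USP18, and these genes differed by between -0.45 (USP18 in T98G) and 0.51 (HERC6 in A172). ISG15 itself started from control levels of 6.08, 6.33 and 6.18 and differed by 0.37, -0.05 and -0.41. For HERC5, the main ISG15 ligase, the controls were 6.17, 4.92 and 6.97 and the differences 0.34, -0.31 and -0.16. T98G held less HERC5 than A172, with A172 minus T98G at 1.58 (SE 0.16, limma adjusted p 0.000277). Its relative HERC6 started at 5.47, 5.28 and 6.51 and differed by 0.51, 0.19 and -0.11. USP18, which removes ISG15 and dampens the receptor, started at 4.99, 5.56 and 5.41 and differed by 0.35, -0.45 and -0.34. All 4 genes were therefore above 0 in A172 and below 0 in U87MG.

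Transcription factors of the pathway on the list were IRF9 and IRF7. IRF9, the DNA-binding part of ISGF3, started from control levels of 5.81, 5.60 and 5.92 and differed by 0.61, -0.29 and -0.18, above 0 in A172 alone. IRF7, which drives interferon-alpha genes, started at 5.86, 5.78 and 5.31 and differed by -0.10, 0.02 and 0.26, below 0 in A172 alone.

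PARP9 is an ADP-ribosyltransferase and DTX3L its ubiquitin ligase partner in the response. PARP9 started at 7.32, 6.78 and 6.96 and differed by 0.58, -0.10 and -0.22. DTX3L started at 8.59, 8.26 and 8.23 and differed by 0.40, 0.11 and -0.17. The related PARP14 started at 6.70, 7.22 and 6.83 and differed by 0.47, 0.06 and -0.27, so all 3 were above 0 in A172 and below 0 in U87MG.

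TRIM22, SP100 and IFI16 are nuclear restriction factors, the last also a DNA sensor, and LGALS3BP is a secreted glycoprotein. TRIM22 started at 6.98, 6.48 and 7.15 and differed by 0.50, -0.12 and -0.03. Control levels of SP100 were 7.55, 7.76 and 7.47, with differences of 0.19, -0.06 and 0.00. IFI16 started at 8.53, 8.63 and 9.04 and differed by 0.35, -0.08 and -0.08. These 3 genes were above 0 in A172 only, whereas LGALS3BP, from control levels of 9.60, 9.83 and 8.63, differed by -0.01, -0.21 and 0.09.

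Read against the starting levels, the A172 difference did not begin from one position. Of the 19 members at least 0.5 higher, the A172 control lay below both other controls for 6 (31.5% of all measured genes). It lay between them for 9 and above both for 4 (38.0%). After the mimic, A172 lay above both other controls for 12 of the 19, between them for 6, and below both for XAF1 alone. The 19, and the 10 below, were picked by their A172 difference, which in itself favours a low control and a high mimic value. No share over all genes was counted for the mimic positions. Among the 10 members at least 1 higher, IFIT2, IFI6, IFI44, IFI44L and XAF1 started below both other controls and RSAD2 above both. The mimic array ended above both other controls for 6 of these 10, leaving MX2, IFI44 and IFI44L between them. Over all 35 measured members the A172 mimic array was the highest of the 6 for 20, beside 18.6% of all measured genes.

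Some neighbouring members differed widely in the size of their difference and others did not. On chromosome 11, IFITM1 lies between IFITM2 and IFITM3, and their A172 differences were 1.89, 0.16 and 0.12. RSAD2 and CMPK2 on chromosome 2 gave 2.06 and 0.22, and IFIT1 and IFIT5 on chromosome 10 gave 2.37 and 0.33. Closer pairs were SAMD9 and SAMD9L on chromosome 7 (0.61 and 0.59), PARP9 and DTX3L on chromosome 3 (0.58 and 0.40), and HERC6 and HERC5 on chromosome 4 (0.51 and 0.34).

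Other genes of the interferon pathway were read in 9 lists with 126 genes, of which 110 were measured and 87 tested. No gene of these lists passed the limma test across the lines at an adjusted p under 0.05 (background 1.11%), and 13 had an unadjusted limma p under 0.05 (background 11.8%). In A172, 18 of the 110 were at least 0.5 higher (2.06% of all measured genes) and 6 at least 1 higher (0.168%). In T98G and U87MG, 0 and 1 of them were at least 0.5 higher (1.95% and 1.61%).

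Of 21 interferon genes 16 were measured, and 13 of these lay below the filter level on all 6 arrays, the exceptions being IFNL1, IFNL2 and IFNL3. IFNL3 read 7.20 and 7.18 in A172 (control, then mimic), 6.95 and 7.02 in T98G, and 6.65 and 6.77 in U87MG, the 6 IFNL1 values lay between 4.61 and 4.94, and those of IFNL2 between 4.22 and 4.92. IFNB1 is the ligand that non-immune cells make first. It read 2.25 and 2.08 in A172 (control, then mimic), 2.57 and 2.02 in T98G, and 2.20 and 2.34 in U87MG. In A172, 0 of the 16 measured ligands were at least 0.5 higher (2.06% of all measured genes), which is the usual outcome for so few genes. The median A172 difference was -0.03 for the 16 ligands and -0.01 for the 9 receptors and kinases, of which IL10RB, a chain of the interferon-lambda receptor, differed by 0.66. For the STAT and IRF factors outside the list (6 measured) the median was 0.17, and for the 8 genes listed as negative regulators 0.18. That last list also held UBA7 and UBE2L6, enzymes that attach ISG15, so its median is not that of inhibitors alone.

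A list of RNA sensors, their adaptors and kinases, and the OAS genes came nearest to the members. Its median was 0.51 in A172 over the 17 measured. In that line 9 of the 17 were at least 0.5 higher (2.06% of all measured genes) and 4 at least 1 higher (0.168%). In T98G and U87MG 0 were at least 0.5 higher (1.95% and 1.61%), the usual outcome for so few genes. Among the 9 was TLR8, a sensor of single-stranded RNA, which read 2.41 and 3.07 in A172 (control, then mimic). TLR8 lay below the filter level on all 6 arrays and was not tested. OAS1, which makes the oligoadenylate messenger that activates RNase L, read 5.79 and 7.62 in A172 (control, then mimic), 6.46 and 6.54 in T98G, and 5.38 and 5.30 in U87MG. OAS2, of the same family, read 5.16 and 6.77 in A172 (control, then mimic), 6.08 and 5.90 in T98G, and 5.00 and 5.06 in U87MG. The A172 mimic array was the highest of the 6 for both. RIGI, a sensor of viral RNA ends, differed by 1.16 in A172, -0.11 in T98G and 0.41 in U87MG. IFIH1 (MDA5), which senses long double-stranded RNA, differed by 1.17, 0.46 and 0.21 in the same order. For these sensors the other lines were not uniformly below 0: RIGI was above 0 in U87MG and IFIH1 in both T98G and U87MG.

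The remaining lists differed less. The 4 measured DNA sensors had an A172 median of 0.01, the 15 measured interferon-gamma and antigen presentation targets 0.11, and the 9 chemokines and ligands 0.02, with TNFSF10 (the death ligand TRAIL) at 1.08 and CXCL8 at -0.69. CXCL10, a chemokine that interferon induces in many cells, differed by -0.19 in A172. In the list of other interferon-stimulated genes 24 of 26 were above 0 in A172 (49.9% of all measured genes), with a median of 0.24 and EPSTI1 at 1.49.

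**Figure D4:**
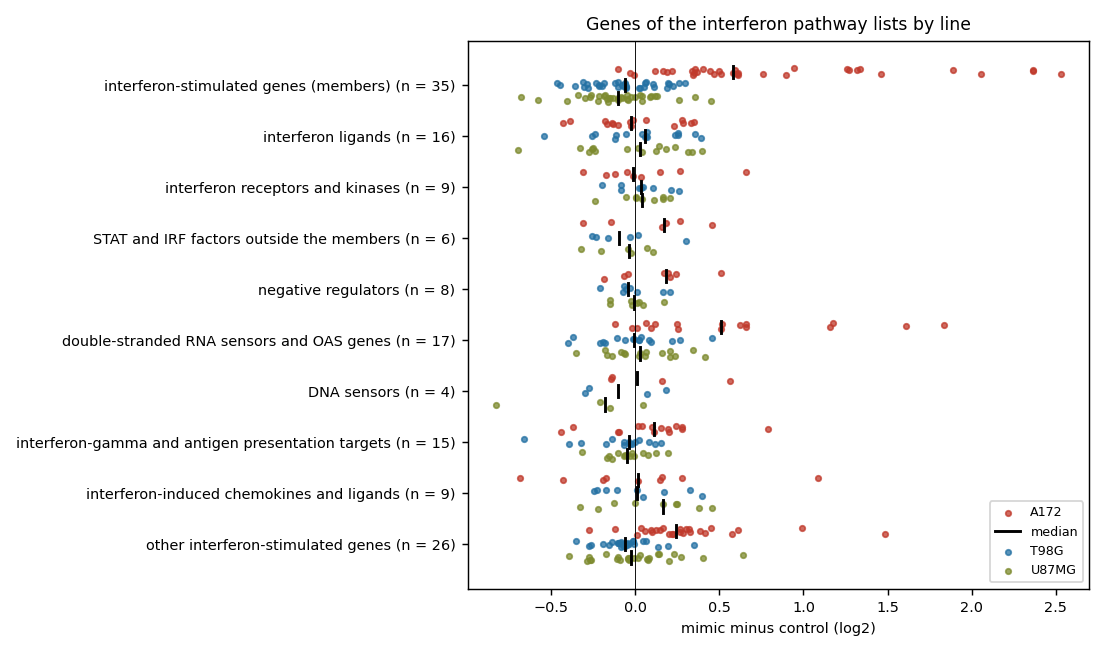
Mimic minus control (log2, horizontal axis) for each measured gene of the interferon-stimulated gene list and of the 9 pathway lists (rows), with 1 point for each gene and line and a tick at each line's median. In A172 the median is 0.58 for the 35 listed genes and 0.51 for the 17 of the RNA sensor and OAS list. For the 16 ligands it is -0.03.

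The 10 tested genes with the largest A172 differences were IFI44L, IFIT2, IFIT1, IFITM1, OAS1, OAS2, EPSTI1, IFIT3, WSB1 and KIT. WSB1, a substrate-binding subunit of a ubiquitin ligase, stood apart from the interferon genes in this group. It rose in all 3 lines, by 1.38 in A172, 0.77 in T98G and 0.87 in U87MG (mean 1.01 ± 0.33, SD, 3 lines, limma adjusted p 0.0239). The call depended on the setting. The limma adjusted p of WSB1 was 0.0531 with no filter, 0.0306 without A172, 0.01996 without T98G and 0.165 without U87MG. KIT, a receptor tyrosine kinase, differed by 1.35, 0.38 and 0.43 in the same order (limma adjusted p 0.184).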

How the data were processed

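The submitters' processing notes name RMA and the package oligo in R 3.0.1. The values deposited by the authors are on the log2 scale, 33297 probe sets for each of the 6 arrays in a single table. RMA corrects background, equalises the arrays' distributions and summarises probes, so a shift shared by most genes would be removed. A supplied platform annotation gave 19460 probe sets 1 symbol, 1754 several and 12083 none; 19429 matched a RefSeq gene, and only probe sets with 1 symbol were named. Per gene the brightest probe set over the arrays was kept (769 of 18417 genes had several). The number of arrays limits the precision.

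Genes in the lowest 25% by mean (under 4.28) were left out of tests, leaving 13813. limma 3.58.1 in R 4.3.3 fitted the deposited values with transfection and line as additive terms, two-sided, with Benjamini-Hochberg adjustment over all genes tested. Because a line has 1 array for each transfection, differences within a line were counted past 0.5 and 1 with no test. The p-values measure the spread among these 3 lines; the sources used here do not say which arrays came from separate cultures. The arrays are paired by line as the labels give it: deviations from the group means correlated at 0.951 to 0.958 within a line and at -0.438 or lower between lines.

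Members, pathway lists (ligands, receptors and kinases, STAT and IRF factors, negative regulators, RNA sensors, DNA sensors, interferon-gamma targets, chemokines, other interferon-stimulated genes) and marker lists (glioma, leukocyte, plasmacytoid dendritic, endothelial, epithelial, neuronal) were chosen with earlier results of these data known. Values on all arrays were given for members that differed by at least 1 in any line; every measured member is named; of the pathway lists, genes that differed by at least 1 were named, and the 10 tested genes with the largest A172 differences. IL10RB, IFNB1, IFNL1, IFNL2, IFNL3, CXCL8 and CXCL10 were named after their values were seen. Alternatives were the filter, array centring, repeated quantile normalization, the mean over probe sets, the line block, limma's trend and leaving out each line; a filter on the within-line counts was chosen after seeing the data.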

Additional observations from a re-analysis of the deposited data

Results flagged for a closer look

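IFIT1 and MX2 differed between A172 and U87MG in opposite directions. IFIT1 differed by 2.37 (mimic minus control) in A172 and -0.58 in U87MG, a gap of 2.94 log2 units between the lines. For MX2 the values were 1.32 and -0.68, a gap of 1.99. Both stand out because the 2 lines moved by at least 0.5 in opposite directions. On the U87MG mimic array IFIT1 read 4.38 and MX2 4.28, at or near the filter level of 4.28, where array background limits a difference. The gap between the lines was not tested, as each line has 1 array for each transfection. In T98G the values were -0.36 for IFIT1 and -0.28 for MX2.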

How the results depend on the processing

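No member passed the limma test of mimic against control in any of the 10 alternatives (lowest adjusted p of a member 0.105, against 0.405 in the fit reported). The number of all genes called varied with the setting. It was 153 of 13813 in the fit reported, 60 of 18417 with no filter and 360 of 9209 with the lowest 50% of genes left out. With limma's trend it was 471, and it was 64 without A172, 117 without T98G and 0 without U87MG. At such shares a count of 0 among so few members is not unusual and does not show stability. At an unadjusted limma p under 0.05, the fit reported held 1 of 34 members (1635 of all genes). The trend fit held 7 (1894), and the fits without A172, T98G and U87MG held 3 (1334), 6 (1616) and 6 (1339). Without the line as a replicate block limma called 0 genes (127 at an unadjusted p under 0.05) and 0 members (0 unadjusted); the block changed no member's call. The direction of the mean change rests on A172: without it the median member change turned from 0.12 to -0.064, within a range of -0.064 to 0.26 over the lines left out. IFIT1 (-0.47 to 1.00), MX2 (-0.48 to 0.52), IFITM1 (-0.23 to 0.85) and IFI6 (-0.19 to 0.59) turned below 0 without A172; the other 83 of 87 alternative values of 9 named members kept their direction. With the lowest 50% of genes left out, 10 of the 22 remaining members were at least 0.5 higher in A172, fewer because 13 members were no longer counted. The member calls for a difference between lines were 25 of 34 in the fit reported. They ranged from 19 of the 22 remaining members, with the lowest 50% of genes left out, to 26 of 34 with limma's trend. Several members sit near the filter level, where array background limits what a difference can show.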
